A study of Carassius carassius with 6 samples.

Results

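The 200 genes with the highest mean expression were described in brains of crucian carp (Carassius carassius), out of 41199 genes listed in the expression table. They were chosen by their mean FPKM (fragment counts normalized for gene length and library size) over all 6 RNA sequencing libraries, and made up 0.485% of the listed genes. Of the libraries, 3 came from wild-type fish exposed over 28 days to 0.6 µg/L of deltamethrin, and 3 from wild-type fish of the unexposed control. The study used 90 fish in all, and the sources used here do not say how many fish went into a library, so the spread between libraries may be in part technical. The fish were juveniles, and the sources used here give neither their age nor their sex.

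Deltamethrin is a pyrethroid insecticide that holds voltage-gated sodium channels of nerve cells open, and fish are sensitive to it. A small number of genes supplies a large part of the messenger RNA in any tissue, and a change in a few of them changes the relative level of all others. FPKM corrects the count of a gene for its length and for the size of the library, so a short gene with few fragments can rank above a long gene with many. The lineage of crucian carp and goldfish carries a duplicated genome, so that near-identical gene copies can share fragments and the split between such copies is uncertain.

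The identifiers are Ensembl-style and the table pairs none of them with a name. None was found among the 70659 genes of the RefSeq table for assembly fCarCar2.1 (0 of 41199). The genes are therefore called by their rank in mean FPKM, from rank 1 (highest) to rank 200, with identifiers for 4 of them. Where 3 values are given for a group, they are those of its replicates 1, 2 and 3 in that order. The tissue could not be checked against marker genes for the same reason, and no function is given for any gene. In bulk brain RNA, fewer cells of a type and less RNA per cell cannot be told apart.

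Whole fragments behind the FPKM values were recovered, with 20284797 to 22279901 fragments per library. Control replicate 3 stood apart in 1 respect that touches the 200 genes: short genes were higher in it. Among tested genes under 1000 bases outside the 200, the median gene deviated by 0.12 from its own 6-library mean on the log2(FPKM + 1) scale, against -0.07 to 0.02 in the other 5 libraries. The -0.07 was that of deltamethrin replicate 1, in which short genes were lower. The summed FPKM of control replicate 3 was 646824, and that of the other libraries lay between 591395 (deltamethrin replicate 1) and 619193 (deltamethrin replicate 2). Counts of genes lower and apart, the median difference, the share of the set and several named genes are given with and without control replicate 3.

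The 200 genes held a large part of all FPKM in every library. Their share of the summed FPKM was 24.3%, 26.2% and 24.0% in deltamethrin replicates 1, 2 and 3, against 26.0%, 25.4% and 26.6% in control replicates 1, 2 and 3. The groups overlapped, since deltamethrin replicate 2 lay above control replicate 2. The mean share was 24.9% ± 1.21 in deltamethrin and 26.0% ± 0.643 in control (SD, n = 3 each), a difference of -1.12 percentage points. With the set chosen again without control replicate 3, the mean share was 24.9% in deltamethrin and 25.7% in control. The rule chose the genes by level, so shares are a description and carry no test.

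The share was concentrated at the top of the list. Rank 1 alone held 0.873%, 1.19% and 1.12% of the summed FPKM in the deltamethrin libraries, against 1.02%, 0.810% and 0.891% in control replicates 1, 2 and 3. Ranks 1 to 10 held 4.50% ± 0.443 in deltamethrin and 4.29% ± 0.250 in control (SD, n = 3 each), slightly more in deltamethrin. Each lower tier held less in deltamethrin on average. Ranks 11 to 50 held 7.30% ± 0.357 in deltamethrin and 7.82% ± 0.161 in control, and the last 100 ranks held 7.45% ± 0.229 in deltamethrin and 7.88% ± 0.169 in control (SD, n = 3 each). The lower share of the whole set thus came from ranks 11 to 200 and not from the 10 highest genes.

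**Figure D1:**
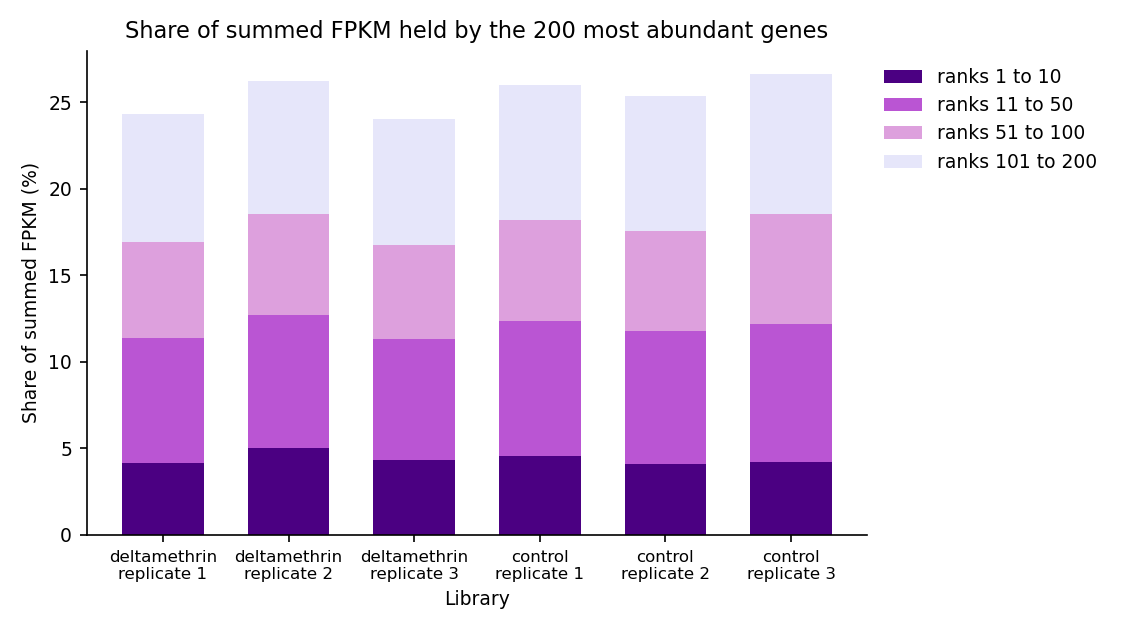
Share of the summed FPKM (vertical axis, percent) held by the 200 most abundant genes in each library, stacked by rank tier, with deltamethrin libraries left of control libraries. The stacks end between 24.0% (deltamethrin replicate 3) and 26.6% (control replicate 3).

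Summed over all genes outside the set, the libraries differed less. The summed FPKM of the 200 genes was 143736, 162530 and 143048 in deltamethrin replicates 1, 2 and 3, against 158433, 154714 and 172295 in control replicates 1, 2 and 3. The summed FPKM of all other genes was 447659, 456663 and 451980 in the same deltamethrin libraries, against 451573, 455561 and 474530 in the control libraries. Control replicate 3 was the highest library in both sums.

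Counted in fragments, without the correction for length, the set was smaller. It took up 12.2%, 13.8% and 12.2% of the fragments in listed genes in deltamethrin replicates 1, 2 and 3, against 13.3%, 12.8% and 14% in control replicates 1, 2 and 3. The genes were short. Their recovered lengths had a median of 674 bases (range 129 to 6019), against 2035 bases over the 25688 genes tested. Of the 200 genes, 147 (73.5%) were under 1000 bases, against 17.9% of the genes tested, and 25 were under 300 bases. Of the 200 genes with the most fragments, 100 belonged to the set, and the lowest-placed gene of the set stood at place 3108 by fragments. Rank 1 was first by either measure, with 175742 to 272151 fragments per library. A recovered length or count can be too low by a common factor.

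Depth was ample for every gene of the set. The lowest count of any of the 200 genes in any library was 1244 fragments, and the median gene had 9256 fragments per library. Counting error alone would give a median coefficient of variation (CV, the SD divided by the mean) of 1.04%, and at most 2.61%. The observed CV exceeded the counting error in 197 of 200 genes within deltamethrin and in 194 within control. The spread between libraries was thus for nearly every gene larger than depth sets. The fragments carry no molecular identifiers, so this covers counting error only.

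Rank 1 (ENSCARG00000052605) was far above all others in every library. It was at 5164, 7385 and 6664 FPKM in the deltamethrin libraries, against 6227, 4941 and 5763 FPKM in the control libraries. The values overlapped between groups, with means of 6405 ± 1133 FPKM in deltamethrin and 5644 ± 651 FPKM in control (SD, n = 3 each). The log2 fold change of rank 1 was 0.17 (95% interval -0.27 to 0.62, limma), which includes 0.

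Rank 2 (ENSCARG00000021529) was at 2923, 3723 and 2380 FPKM in the deltamethrin libraries, against 4359, 2674 and 3495 FPKM in the control libraries. Within each group its highest library was over 1.5 times its lowest, and the groups overlapped. Its log2 fold change was -0.22 (95% interval -0.76 to 0.32, limma).

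Ranks 3 and 4 shared a pattern with rank 1, with deltamethrin replicate 2 highest and control replicate 2 lowest. Rank 3 was at 2308, 3969 and 3103 FPKM in the deltamethrin libraries, against 2987, 2280 and 2623 FPKM in the control libraries. Rank 4 was at 2203, 3746 and 2696 FPKM in the deltamethrin libraries, against 2602, 1802 and 2545 FPKM in the control libraries. Their log2 fold changes were 0.22 (rank 3) and 0.30 (rank 4), with 95% intervals that included 0 (limma). Rank 4 came down to 0.09 without deltamethrin replicate 2 and to 0.13 without control replicate 2, so its size rested on those 2 libraries.

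Ranks 5, 6 and 9 were tighter within groups and did not overlap between them in FPKM. As shares of the summed FPKM of each library, ranks 5 and 9 did overlap between groups and rank 6 did not. Rank 5 was at 2424, 2358 and 2111 FPKM in the deltamethrin libraries, against 2501, 2468 and 2691 FPKM in the control libraries. Rank 6 was at 2209, 2122 and 1895 FPKM in the deltamethrin libraries, against 2494, 2307 and 2568 FPKM in the control libraries. All 3 deltamethrin values lay below all 3 control values in both genes. Rank 9 was at 1813, 1544 and 1627 FPKM in the deltamethrin libraries, against 2114, 2158 and 1831 FPKM in the control libraries. Its log2 fold change of -0.29 had a 95% interval of -0.61 to 0.03 (limma), so that even this difference did not pass the test.

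Rank 7 was set by 1 control library. It was at 2118, 2067 and 1769 FPKM in the deltamethrin libraries, against 1481, 2721 and 1513 FPKM in the control libraries. Control replicate 2 was the highest library and the other 2 controls were the lowest, which gave a CV of 37.1% within control, the largest of the 200 genes, and 9.51% within deltamethrin. Ranks 8 and 10 overlapped between groups, with means of 1970 ± 307 FPKM in deltamethrin and 1807 ± 260 FPKM in control for rank 8, and 1703 ± 75.5 FPKM in deltamethrin and 1834 ± 228 FPKM in control for rank 10 (SD, n = 3 each).

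**Figure D2:**
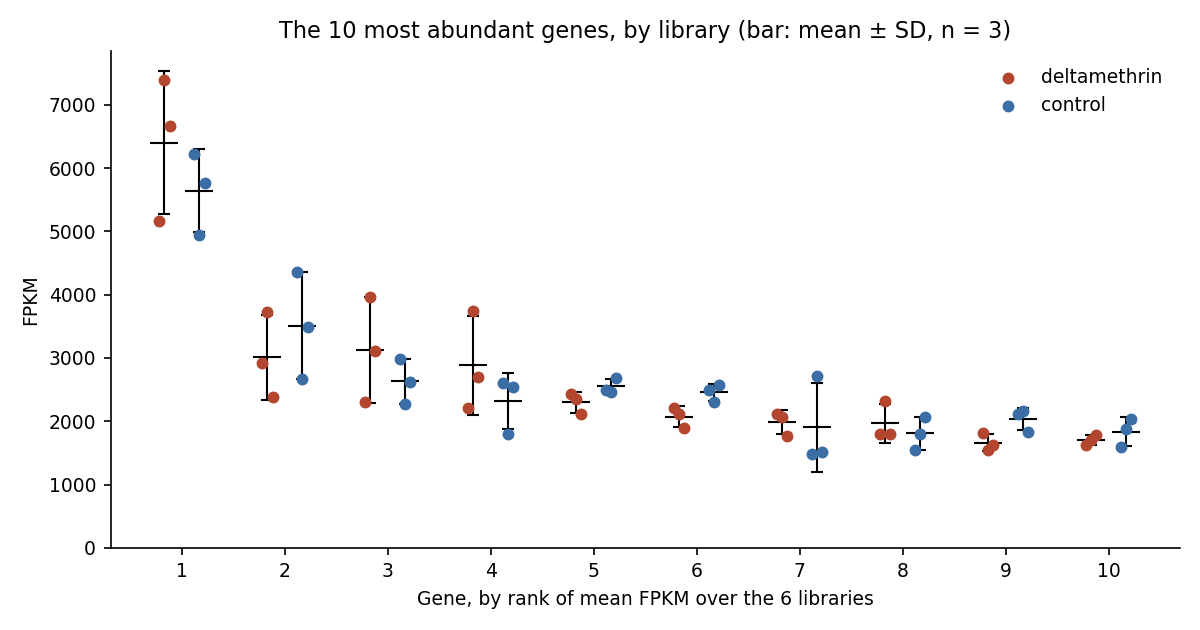
FPKM (vertical axis) of the 10 most abundant genes (horizontal axis, by rank) in each library, deltamethrin left of control, with the mean and SD of 3 libraries as black bars. Rank 1 lies between 4941 and 7385 FPKM, and the groups are apart in ranks 5, 6 and 9 only.

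The order of the genes was stable at the top and loose at the bottom. Rank 1 was first in all 6 libraries. Of the 200 genes, 5 were among the 10 highest in every library, while 16 genes entered the 10 highest of at least 1 library. In each library, 184 to 191 of its own 200 highest genes belonged to the set. All 6 libraries had 165 of the 200 genes among their 200 highest, and 252 genes entered the 200 highest of at least 1 library. The median distance between a gene's best and worst place was 11 places for ranks 1 to 50 and 51.5 places for the last 50 ranks. This concerns places and not levels. The median CV of ranks 1 to 50 was 10.8% within deltamethrin and 9.86% within control. For the last 50 ranks it was 11.4% within deltamethrin and 7.65% within control. Of the set, 193 genes were also among the 200 highest by the deltamethrin mean alone, and 195 by the control mean alone.

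Libraries did not order the genes more alike within a group than between groups. Spearman's rho over the 200 genes, given as a description since the points share their libraries, was 0.912 to 0.941 for pairs of deltamethrin libraries and 0.918 to 0.924 for pairs of control libraries. Between groups it ran from 0.905 to 0.950, so the closest pair and the most distant pair both joined a deltamethrin library with a control. The closest pair was deltamethrin replicate 2 with control replicate 1, and the most distant pair was deltamethrin replicate 1 with control replicate 3.

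The largest shift in place was that of rank 199. It was at 437, 451 and 353 FPKM in the deltamethrin libraries, against 282, 461 and 251 FPKM in the control libraries. Its place ran from 151 to 386 among all genes, a range of 235 places. Rank 189, with the longest recovered length (6019 bases), had the next largest range, from place 143 to place 326, and rank 115 ran from place 74 to place 254.

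The threshold cut through near-equal levels. Rank 200 had a mean of 371.46 FPKM and the next gene, just outside the set, a mean of 371.41 FPKM. Rank 200 was at 343, 438 and 327 FPKM in the deltamethrin libraries, against 347, 385 and 389 FPKM in the control libraries. The gene just outside was at 324, 364 and 383 FPKM in the deltamethrin libraries, against 406, 333 and 418 FPKM in the control libraries. Taking the median in place of the mean kept 197 of the 200 genes.

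Spread within groups was of similar size in both. The median CV over the 200 genes was 11.2% within deltamethrin (quartiles 6.97% and 14%) and 9.69% within control (quartiles 4.85% and 14.8%). On the log2(FPKM + 1) scale, 102 of the 200 genes (51%) had the larger SD in deltamethrin, against 46.6% of all genes tested. A CV over 20% was found in 9 genes within deltamethrin and in 27 within control, with 5 genes in both lists. The spread changed with the library left out. The median SD in deltamethrin was 0.16, and was 0.17, 0.10 and 0.14 without replicates 1, 2 and 3. In control it was 0.14, and was 0.12, 0.12 and 0.07 without replicates 1, 2 and 3. With a library left out these are SDs of 2 values, which tend to be lower than SDs of 3.

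The widest spread within deltamethrin was that of rank 150, at 651, 379 and 424 FPKM in replicates 1, 2 and 3 (CV 30.1%), against 490, 420 and 409 FPKM in the control libraries. Deltamethrin replicate 1 alone was high. Rank 4 (27.4%), rank 3 (26.6%), rank 14 (25%) and rank 2 (22.5%) followed by CV within deltamethrin. Within control, rank 7 was followed by rank 130 (35.6%), rank 115 (35.2%), rank 199 (34.3%) and rank 40 (32.4%). In each of these 5 genes control replicate 2 was either the highest or the lowest of the controls.

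The steadiest gene was rank 152. It was at 472, 460 and 468 FPKM in the deltamethrin libraries, against 441, 448 and 454 FPKM in the control libraries. Its CV over the 6 libraries was 2.61%, and it was the only gene of the set in which all deltamethrin values lay above all control values, by a mean ratio of 1.04. With each library scaled by the median ratio of its genes to their means, 0 genes of the set were apart in that direction. Ranks 167 (4.23%), 154 (4.54%), 24 (5.92%) and 171 (6.47%) were the next steadiest. Rank 24 was at 1285, 1276 and 1267 FPKM in the deltamethrin libraries, against 1269, 1279 and 1464 FPKM in the control libraries, so that 5 of 6 libraries lay within 20 FPKM of each other.

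Genes with a CV over 20% across the 6 libraries numbered 19, and several of them kept nearly fixed ratios to each other. The pairs named here were picked after their values were seen, out of 19900 possible pairs, and are a description. The FPKM of rank 2 was 2.23, 2.13 and 2.22 times that of rank 14 in deltamethrin replicates 1, 2 and 3, and 2.19, 2.2 and 1.96 times in control replicates 1, 2 and 3. Both genes were highest in control replicate 1 and lowest in deltamethrin replicate 3. The SD of that log2 ratio was 0.07, against 0.33 for the log2 level of rank 2 itself.

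Ranks 7, 15, 20, 40 and 199 formed another such series, each with control replicate 2 as its highest library. Rank 15 was at 1607, 1602 and 1341 FPKM in the deltamethrin libraries, against 1168, 1886 and 1131 FPKM in the control libraries. Rank 20 was at 1493, 1461 and 1233 FPKM in the deltamethrin libraries, against 1106, 1869 and 1124 FPKM in the control libraries. In all 5 genes, control replicates 1 and 3 were the lowest libraries. The ratio of rank 7 to rank 20 stayed between 1.34 and 1.46 over the 6 libraries, and that of rank 15 to rank 20 between 1.01 and 1.1. Whether such genes are copies of each other or share fragments was not tested.

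Between the groups, no gene of the set passed the test. Limma on log2(FPKM + 1), fitted on all 25688 genes with a mean of at least 1 FPKM, gave an adjusted p under 0.05 for 0 of the 200 genes and for 0% of all genes tested. The smallest adjusted p among the 200 was 0.994 (limma). The unadjusted p was under 0.05 in 5 genes (2.5% of the set), all lower in deltamethrin, where 4.29% of all genes tested passed in either direction, 1.9% as lower and 2.4% as higher. By limma's voom on the recovered fragments, 0 genes passed the adjusted threshold and 14 the unadjusted one, 13 of them lower, against 3.88% of all genes tested.

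The set nevertheless lay mostly on the lower side in deltamethrin. The log2 fold change was below 0 in 175 of the 200 genes (87.5%), against 47.7% of all genes tested. Its median was -0.14 over the set (quartiles -0.22 and -0.08), against 0.01 over all genes tested. The tiers were alike, with medians of -0.16 for ranks 1 to 50, -0.15 for ranks 51 to 100, -0.15 for the 50 ranks after 100 and -0.14 for the last 50 ranks. The next 200 genes by abundance were also mostly lower, 166 of 200, with a median of -0.13. These genes share the same 6 libraries and are not independent of each other, so the count is a description.

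All 3 deltamethrin values lay below all 3 control values in 27 genes of the set (13.5%), against 4.5% of all genes tested, and above them in 1 gene, against 5.7%. Without deltamethrin replicate 2 the first count was 101 (50.5%, against 9.24% of all genes tested), without control replicate 1 it was 56 (28.0%, against 9.46%), and without control replicate 2 it was 45 (22.5%, against 9.99%). Without control replicate 3 it was 33 (16.5%, against 8.08%). The unadjusted count of 5 genes, all lower, moved to 31, all lower, without deltamethrin replicate 2 (3.92% of all genes tested in either direction), to 13, of which 9 were lower and 4 higher, without control replicate 2 (5.52%), and to 1 without deltamethrin replicate 1 (4.29%) or replicate 3 (4.31%), by limma.

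**Figure D3:**
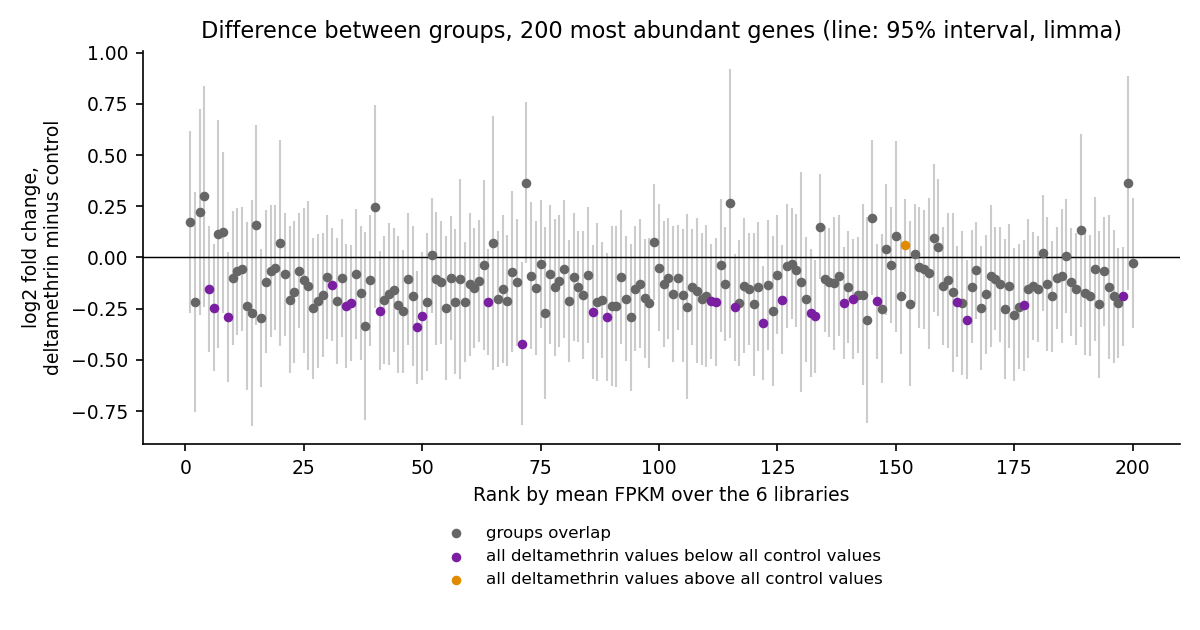
Log2 fold change, deltamethrin minus control (vertical axis, log2(FPKM + 1) scale), against abundance rank (horizontal axis) for the 200 genes, with 95% intervals from limma as grey lines. Of the points, 175 lie below 0, and 27 genes (purple) have all deltamethrin values below all control values.

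The median deviation of the 200 genes from their own mean of 6 libraries was -0.11, 0.05 and -0.14 in deltamethrin replicates 1, 2 and 3, against 0.04, 0.03 and 0.17 in control replicates 1, 2 and 3, on the log2(FPKM + 1) scale. Over libraries these medians averaged -0.07 ± 0.10 in deltamethrin and 0.08 ± 0.08 in control (SD, n = 3 each). The groups overlapped, since deltamethrin replicate 2 lay above control replicates 1 and 2, with deltamethrin replicates 1 and 3 at the low end and control replicate 3 at the high end. Control replicate 3 was the highest library for 118 of the 200 genes (59%), against 19.8% of all genes tested. Deltamethrin replicate 3 was the lowest library for 90 genes (45%, against 13.1%) and deltamethrin replicate 1 for 54 genes (27.0%, against 19.4%). Over all genes tested the median deviation was between -0.01 and 0.01 in every library. Over the next 200 genes by abundance it was -0.13, 0.01 and -0.06 in deltamethrin replicates 1, 2 and 3, against -0.02, 0.01 and 0.18 in control replicates 1, 2 and 3.

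**Figure D4:**
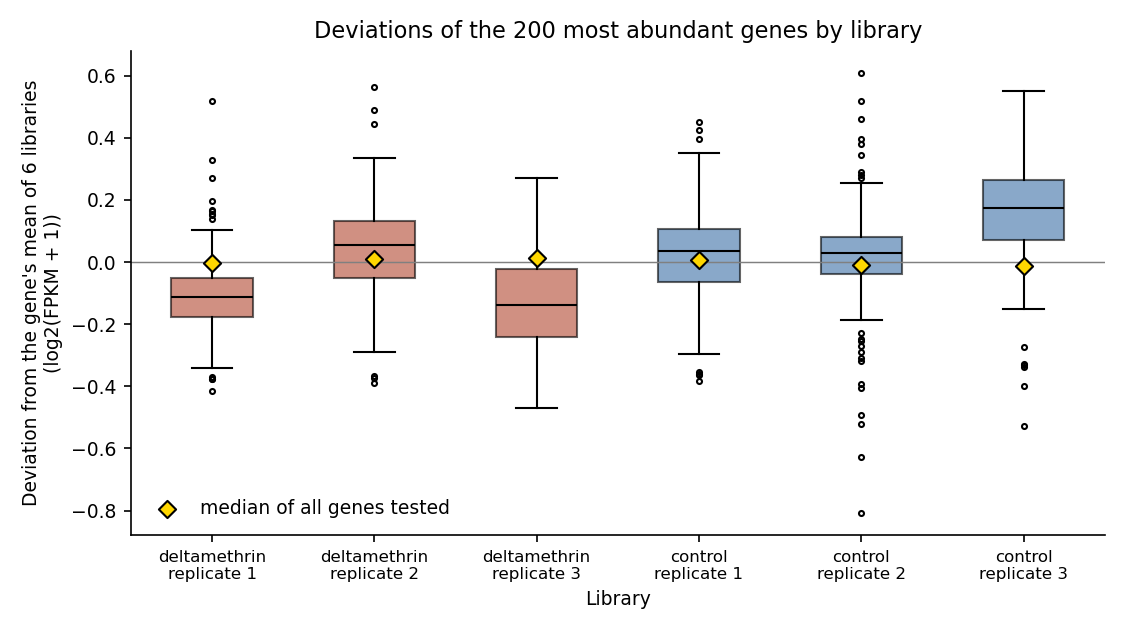
Deviation of each of the 200 genes from its mean of 6 libraries (vertical axis, log2(FPKM + 1)), by library, deltamethrin left of control; boxes span the quartiles with the median as a line, whiskers reach 1.5 times the box height, circles are genes beyond them and diamonds mark the median of all genes tested. The boxes of deltamethrin replicates 1 and 3 lie low (medians -0.11 and -0.14) and that of control replicate 3 lies high (0.17).

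Without control replicate 3 the pattern was weaker and kept its direction. The median log2 fold change became -0.09, and 153 of the 200 genes (76.5%) were lower, against 48.9% of all genes tested. Without deltamethrin replicate 2 the median was -0.21, with 180 genes lower (90.0%, against 48.1%). Scaling each library to the same summed FPKM gave -0.10 with 167 genes lower (83.5%, against 38.3% of all genes tested), where the median of all genes tested moved to 0.05. Quantile normalization, which by construction gives every library the same set of values, left a median of -0.03 with 119 genes lower (59.5%, against 51.2%). Under it the genes apart between groups were 6 lower (3.0%, against 5.09% of all genes tested) and 6 higher (3.0%, against 4.82%) in deltamethrin. The set held 184 to 191 of the 200 highest genes of each library. Quantile normalization therefore takes out most of a shift that the set shares and cannot test for it. The unadjusted p was then under 0.05 in 2 genes, both higher in deltamethrin, and in 4.31% of all genes tested (limma).

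The difference varied with gene length, inside the set and outside it. Among the 67 genes of the set under 500 bases, 64 (95.5%) were lower in deltamethrin, with a median log2 fold change of -0.21. Of the 1160 other tested genes of that length, 61.6% were lower, with a median of -0.09. The 80 genes of the set from 500 to under 1000 bases had a median of -0.15, and the 3287 other genes -0.06. From 1000 to under 2000 bases the medians were -0.09 in 46 genes of the set and -0.01 in 7960 other genes. The order of the length classes was the same for both, with the genes of the set lower than the other genes in each of these 3 classes. Of the 7 longer genes, 5 had a median of -0.06, and both genes of 4000 bases or more, ranks 145 and 189, were higher in deltamethrin, with log2 fold changes of 0.19 and 0.13.

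Without control replicate 3, the medians of the set were -0.12 under 500 bases, -0.11 from 500 to under 1000 and -0.05 from 1000 to under 2000 bases. The other tested genes then had medians of -0.02, -0.02 and 0.00 in the same classes. Under 500 bases, 58 of the 67 genes of the set (86.6%) were then lower, against 52.8% of the other genes. With the trend of each library with log2 length removed, a step chosen after the data were seen, the median of the set was -0.10 and 160 of the 200 genes were lower (80.0%, against 50.9% of all genes tested). The genes apart between groups were then 18 lower (9.0%, against 4.83%) and 2 higher (1.0%, against 5.2%). Among the other tested genes, the median deviation in control replicate 3 ran from 0.16 under 500 bases to -0.12 at 4000 bases or more. In deltamethrin replicate 1 it ran the other way, from -0.10 to 0.06. The part of length and of these libraries in the lower level of the set was not tested beyond these values.

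**Figure D5:**
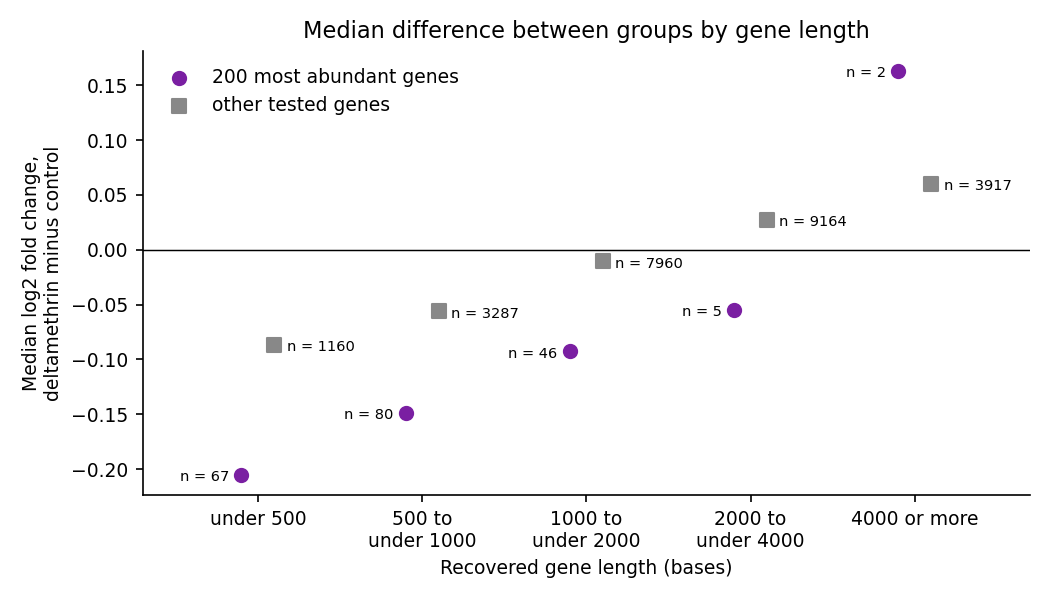
Median log2 fold change, deltamethrin minus control (vertical axis), by recovered gene length in bases (horizontal axis) for the 200 most abundant genes (circles) and the other tested genes (squares), with the number of genes beside each point. Medians run from -0.21 in the set and -0.09 in the other genes under 500 bases to 0.16 and 0.06 at 4000 bases or more, the last from 2 genes of the set.

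Rank 49 (ENSCARG00000035454) had the smallest unadjusted p of the genes lower in deltamethrin. It was at 718, 838 and 772 FPKM in the deltamethrin libraries, against 1014, 924 and 1011 FPKM in the control libraries. The groups did not overlap, with means of 776 ± 60.1 FPKM in deltamethrin and 983 ± 51.3 FPKM in control (SD, n = 3 each). Limma gave a difference of -0.34 ± 0.12 (SE) on the log2 scale, at an unadjusted p of 0.0212 that became 0.994 after adjustment, on 6374 to 9081 fragments per library.

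Rank 122 was at 487, 469 and 487 FPKM in the deltamethrin libraries, against 568, 557 and 686 FPKM in the control libraries. Rank 71 was at 551, 627 and 683 FPKM in the deltamethrin libraries, against 771, 702 and 1047 FPKM in the control libraries. Both were apart between groups, and control replicate 3 was the highest library of each. Rank 71 had the largest difference of the set in this direction, a log2 fold change of -0.42 with an adjusted p of 0.994 (limma), and is among the shortest at 171 bases. Without control replicate 3 its log2 fold change was -0.25 at an unadjusted p of 0.107, and that of rank 122 was -0.23 at an unadjusted p of 0.0669 (limma).

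Rank 133 was at 456, 511 and 409 FPKM in the deltamethrin libraries, against 566, 548 and 558 FPKM in the control libraries. Rank 165 was at 362, 397 and 408 FPKM in the deltamethrin libraries, against 445, 448 and 553 FPKM in the control libraries. These 5 genes, ranks 49, 71, 122, 133 and 165, were the ones at an unadjusted p under 0.05 (limma). They were short, from 171 to 513 bases. Without control replicate 3, rank 165 was at a log2 fold change of -0.20 and ranks 49 and 133 at -0.32 and -0.29. Ranks 38 and 144 completed the largest differences on the lower side, with log2 fold changes of -0.33 and -0.31, and overlapped between groups. Rank 38 was at -0.18 without control replicate 3 and at -0.53 without control replicate 2. Rank 144 was at -0.13 without control replicate 3, at -0.54 without control replicate 2 and at -0.19 without deltamethrin replicate 2.

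Rank 72 (ENSCARG00000055702) had the largest difference and the smallest unadjusted p of the 25 genes higher in deltamethrin. It was at 769, 839 and 840 FPKM in the deltamethrin libraries, against 819, 541 and 570 FPKM in the control libraries. Control replicate 1 lay among the deltamethrin libraries, so the groups overlapped. The means were 816 ± 40.7 FPKM in deltamethrin and 643 ± 152 FPKM in control (SD, n = 3 each). Limma gave a difference of 0.37 ± 0.17 (SE) on the log2 scale, at an unadjusted p of 0.0639 that became 0.994 after adjustment. Its log2 fold change was 0.55 without control replicate 1, where the unadjusted p was 0.00407 (limma). It was 0.25 without control replicate 2, at an unadjusted p of 0.212 (limma), and 0.29 without control replicate 3.

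In ranks 199, 115, 40 and 145, also named on the higher side, no left-out library moved the log2 fold change more than control replicate 2. Rank 199 had a log2 fold change of 0.36, with control replicates 1 and 3 low and control replicate 2 above all deltamethrin libraries. It was at 0.19 without control replicate 3 and at 0.63 without control replicate 2. Rank 115 was at 583, 739 and 491 FPKM in the deltamethrin libraries, against 639, 310 and 614 FPKM in the control libraries. Its log2 fold change of 0.27 rested on control replicate 2 and was -0.07 without it, 0.11 without deltamethrin replicate 2 and 0.42 without control replicate 3. Rank 134, named for its p only, was less spread than these genes. It was at 504, 560 and 535 FPKM in the deltamethrin libraries, against 447, 513 and 480 FPKM in the control libraries. Its log2 fold change was 0.15, and was 0.10 without control replicate 1 and 0.20 without control replicate 2. Its groups still overlapped, since control replicate 2 lay above deltamethrin replicate 1. Rank 40 was at 1056, 1074 and 894 FPKM in the deltamethrin libraries, against 721, 1199 and 699 FPKM in the control libraries, with a log2 fold change of 0.25. It was at 0.11 without control replicate 3, at 0.13 without control replicate 1 and at 0.50 without control replicate 2. Rank 145 was at 523, 452 and 538 FPKM in the deltamethrin libraries, against 539, 359 and 441 FPKM in the control libraries, and its log2 fold change was 0.05 without control replicate 2 and 0.34 without control replicate 1.

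Changes of more than 2-fold were outside the 95% interval of every gene of the set. For all 200 genes the single-gene interval from limma stayed inside 2-fold both ways, against 93.3% of all genes tested, and for 158 genes (79.0%) it stayed inside 1.5-fold, against 62.6%. The widest bound was a log2 difference of 0.92, in rank 115. The median standard error was 0.14 in the set and 0.17 over all genes tested. The intervals are not corrected for the number of genes, and 178 of the 200 estimates were themselves under 1.2-fold in either direction.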

How the data were processed

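Per the labels' protocols, RNA was extracted with TRIzol and libraries were made with a VAHTS Universal V6 kit. The authors deposited a single file with FPKM for 41199 genes and 1 column per library. CASAVA is named in the submitters' processing notes. Aligner, counter, genome build, annotation and strandedness were not given in the sources used here.

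Members of the set of 200 genes and all lists were chosen with earlier results of these data known. Named genes were ranks 1 to 10, those next to the threshold, and the 5 most extreme by p, fold change, CV, steadiness and place range. Library totals were recovered from recurring ratios of low FPKM values, and counts and lengths as the smallest whole numbers, within 0.001 of a whole fragment for all 25688 genes tested. Totals are known up to a common factor. Limma (version 3.58.1, R 4.3.3) was fitted with a variance trend on log2(FPKM + 1) where the mean FPKM reached 1, with group as the factor; p-values were two-sided, Benjamini-Hochberg adjusted over all genes tested, and called at 0.05; fold changes understate those of low genes. Python 3.11.15 was used for the rest. Recovery and test were tested on simulated data. Alternatives were pseudocounts, filters, scalings, a replicate block, variance priors, library weights, other set sizes and libraries left out; equal sums, length trend removal (lowess, span 0.3), voom, and repeats of the lower and apart counts were added after seeing the data.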

Additional observations from a re-analysis of the deposited data

How the results depend on the processing

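No gene of the set passed limma's adjusted threshold under any of 22 alternatives (0 genes), and the smallest adjusted p was 0.866. The 5 genes at an unadjusted p under 0.05 (limma), all lower in deltamethrin, were 2.5% of the set, against 4.29% of all genes tested. Their count became 0 with no filter on low values (4.39% of all genes tested) and 2 with quantile normalization, both higher (4.31%). It was 3 with no trend in the variance prior, all lower (4.4%), and 14 with voom, 13 of them lower (3.88%). By the main fit it was 2 with 100 genes and 13 with 400 genes, against the same 4.29%. The count lay between 1 and 31 when 1 library was left out. It was 1 without deltamethrin replicate 1 (4.29%) or replicate 3 (4.31%), and 31 without deltamethrin replicate 2 (3.92%). The cause of these changes was not tested. The labels do not say that replicate numbers pair the libraries. In deviations from the group means, same-numbered libraries correlated at 0.01, -0.18 and 0.23 over all genes tested. Differently numbered pairs lay between -0.34 and 0.30. Over the 200 genes the same-numbered values were 0.05, -0.12 and 0.47, and differently numbered pairs lay between -0.38 and 0.30. With the replicate block as a term, limma gave 3 genes in place of 5 (4.34% of all genes tested). The median log2 fold change of -0.14 became -0.026 with quantile normalization and lay between -0.21 and -0.09 when 1 library was left out, below 0 under all 22 alternatives. Among these, the filters, the replicate block and the variance priors cannot change a gene's log2 fold change, so they do not bear on this median. Quantile normalization takes out most of a shift shared by the highest genes, so its values cannot test for such a shift. The genes lower in deltamethrin numbered 153 to 180 of 200 when 1 library was left out, and numbered 119 of 200 with quantile normalization (51.2% of all genes tested). The 27 genes with all deltamethrin values below all control values (13.5%, against 4.5% of all genes tested) became 6 with quantile normalization (5.09% of all genes tested), beside 6 apart the other way (4.82%). By the main values they were 13 of the 100 highest genes and 45 of the 400 highest, against the same 4.5% of all genes tested. Apart the other way were 0 of the 100 highest and 3 of the 400 highest, against 5.7%. For genes with all deltamethrin values lower, leaving 1 library out, which leaves fewer values to compare, gave 32 to 101 of the 200. The 32 were without deltamethrin replicate 3, against 2365 of the 25688 genes tested. The 101 were without deltamethrin replicate 2, against 2374 (9.24%). The share of summed FPKM was 17.4% in deltamethrin and 18.1% in control for 100 genes, and 33.8% in deltamethrin and 35.3% in control for 400 genes. When 1 library was left out it was 24.2% to 25.3% in deltamethrin and 25.7% to 26.3% in control. The median SD within deltamethrin was 0.12 with quantile normalization, in place of 0.16, and 0.10 to 0.17 when 1 library was left out. The median SD within control was 0.11 with quantile normalization, in place of 0.14, and 0.066 to 0.12 when 1 library was left out. With a library left out, both are SDs of 2 values. The number of genes among the 200 highest of every library was 165 to 169 under its 7 alternatives. Of the 14 genes named for their difference, 13 kept their direction under all 13 alternatives, among which the replicate block cannot change it. Rank 115 lay between -0.072 (without control replicate 2, a turn in direction) and 0.45 when 1 library was left out. At the depth of these libraries, every gene of the set had at least 1244 fragments per library.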
